A study of Rattus norvegicus with 6 samples.

Results

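The cytosolic ribosomal protein genes were taken as every row of the count table whose rat gene symbol is Rpl or Rps followed by a number and at most 1 letter, or is Rplp0, Rplp1, Rplp2 or Rpsa. Of 26405 rows, 34 fitted, 24 of them large subunit genes with the stalk genes included and 10 of them small subunit genes. No row carried the symbol Rpsa. The table also held 154 rows that describe a cytosolic ribosomal protein without carrying such a symbol. Of these, 55 rows, covering 49 proteins, carried a description of a ribosomal protein mRNA, and 29 were further rows for the protein of a member. The 34 genes are therefore only the part of the ribosomal proteins that the symbol column names, and the rows known by description are given below for comparison.

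RNA was sequenced from 6 cultures of rat hippocampal neurons, 3 knockdown (KD) and 3 control. KD cultures received a lentivirus with the shRNA Oligo#2 against all isoforms of S-SCAM, the synaptic scaffold protein encoded by Magi2, and control cultures received an empty shRNA vector according to the labels and methods, although a figure legend names a control shRNA. All cultures were dissociated from hippocampi of wild-type embryonic rats, were transduced at DIV2 (day 2 in vitro) and gave RNA at DIV9. They were whole cultures transduced with lentivirus, so glia and other cells contributed RNA. In such bulk samples fewer cells of a type and less RNA per cell cannot be told apart. The legend gives 3 independent experiments, and p-values measure the spread between these 6 cultures.

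Cytosolic ribosomes join a small subunit, which decodes the mRNA, to a large subunit, which forms the peptide bond. Their protein subunits are made in near-equal amounts from genes scattered over the genome, and most of their mRNAs begin with a tract of pyrimidines, the terminal oligopyrimidine or TOP motif, through which the mTOR pathway controls their translation. In neurons these mRNAs are also found in axons and dendrites, where local protein synthesis takes place. The rat genome, like that of other mammals, carries many processed copies of these genes, which makes short reads from them difficult to place.

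Magi2, the targeted gene, had 30.3, 21.1 and 40.4 CPM in the KD cultures and 82.7, 74.7 and 95.7 CPM in the controls, where CPM is the count scaled to a common library size. The groups did not overlap, with a KD mean of 36.3% of the control mean. The log2 fold change, KD over control, was -1.46 (SE 0.27), with an adjusted p of 0.228 by edgeR's quasi-likelihood test and 0.00124 by DESeq2, and a two-sided exact permutation test gave 0.1, the smallest p that 3 against 3 allows. Total counts lay between 18350062 and 29654651 in KD cultures and between 13061705 and 24874466 in controls, the lowest being control 2. Of 13917 genes tested, edgeR called 0 at an adjusted p under 0.05 (1506 at an unadjusted p under 0.05), and DESeq2 called 195 of the 14743 to which it gave an adjusted p. Control 2 also had the highest share of mitochondrial counts, 9.81%, against 6.79% and 6.60% in controls 1 and 3 and 4.94% to 6.71% in the KD cultures.

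Several rows were empty or nearly so. Rplp2, which encodes a stalk protein, and Rps6, the small subunit protein phosphorylated by S6 kinase, had 0 counts in all 6 libraries, which allows at most 3 counts in each as far as counting error goes. Rpl3l, the striated muscle paralog of Rpl3, had 13, 15 and 5 counts in KD cultures and 6, 1 and 8 in controls, too few for the test. Those 3 genes left 31 members tested. A further 3 genes, Rps14, Rpl10l and Rpl36, stayed below 100 counts in every library. The table also held 5 rows described as Rps6 copies, with 2385 counts in all, and 1 of them, LOC100911372, had 13.8, 17.2 and 25.1 CPM in KD cultures and 11.1, 43.5 and 9.95 CPM in controls. The Rpl37a row spans only 279 bases (chr10:9642913-9643191 in rn5) and held 2289 counts in all libraries, while an unnamed second row described as Rpl37a (ENSRNOG00000023385) held 19259. That second row had 154, 160.1 and 165 CPM in KD cultures and 116, 206 and 107 CPM in controls, and the Rpl37a row itself had 17.7, 20.4 and 20.7 CPM against 13.6, 20.7 and 12.7 CPM. RefSeq lists 303 pseudogenes named for the members, 23 of them for Rpl7, and 3 members (Rpl3l, Rpl10l and Rpl39l) have none. How far copies took or gave reads was not tested, so every single level here is uncertain to that extent, and reads of overlapping genes on the other strand cannot be told apart because the kit does not keep the strand. With the counts of the copies added to their member, the median log2 fold change was 0.23 over 32 members, against 0.24 over 31 without them, and single members moved more. Rpl37a stood at 0.18 with its copy added, against 0.32 without it, and Rpl36 at 0.82 against 0.96.

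RefSeq promoter windows (build GRCr8) were matched for 27 of the 34 genes, to describe pyrimidine runs near the annotated start. A run of at least 8 pyrimidines holding a C within 10 bases of the annotated start was present in 17 of the 27 (63.0%), against 12.2% of 33469 promoters. Such a run could end before the annotated start, as it did in Rpl13a, Rpl23, Rps15a and Rplp2. The count is therefore of runs near the start and not of TOP tracts in the mRNA. The median run was 10 bases in the members and 4 bases in all promoters. The letters CTTTCC or CTTTTC stood within 25 bases of the start, on the strand of the gene, in 10 of 27 (37.0%) against 3.98% of all promoters, and on the other strand in 7.41% against 4.06%. Members with a long tract and members with a short one are shown for genes whose levels are described below. Each window runs 5′ to 3′ on the strand of the gene, with 15 bases before the annotated start and 15 from it, and capitals mark the pyrimidine run.
Rplp0, chr12:46718376-46718405, minus strand: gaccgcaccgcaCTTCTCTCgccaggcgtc
Rplp1, chr8:71290858-71290887, minus strand: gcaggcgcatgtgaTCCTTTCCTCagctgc
Rps15, chr7:10068101-10068130, minus strand: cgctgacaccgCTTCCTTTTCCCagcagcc
Rps21, chr3:187724023-187724052, plus strand: gaacgagccaCTTCCTTTCTgtgttctccg
Rpl4, chr8:73566462-73566491, plus strand: taagTTCTTCCTTTTCCTgtgggagcagcc
Rpl34, chr2:221962269-221962298, minus strand: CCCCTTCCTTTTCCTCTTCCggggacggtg
Rpl3, chr7:113507976-113508005, minus strand: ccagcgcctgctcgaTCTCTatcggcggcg
Rpl41, chr7:1563483-1563512, minus strand: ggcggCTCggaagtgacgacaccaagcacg
The runs of Rplp0, Rplp1, Rps15, Rps21, Rpl4 and Rpl34 span the annotated start, the position at which a TOP tract begins. Rpl41 and Rpl3 show short runs in these windows, that of Rpl3 beginning at the annotated start. Whether either gene has a longer run at another start was not tested.

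The members together took 0.770%, 0.856% and 0.904% of all gene counts in the KD cultures, and 0.531%, 0.989% and 0.529% in controls. The share averaged 0.843% ± 0.068 in KD cultures and 0.683% ± 0.265 in controls (SD, n = 3 each), a difference of 0.16 percentage points that was smaller than the SD of the controls. All 3 KD cultures lay above controls 1 and 3, and control 2 lay above all of them. The same order was seen in the 55 rows known by description, with 0.533%, 0.595% and 0.573% of counts in KD cultures and 0.373%, 0.703% and 0.358% in controls. Other nuclear genes with a span under 5 kb took 13.2%, 13.6% and 14.4% of counts in KD cultures and 11.6%, 14.2% and 11.3% in controls. Control 2 thus lay above the other controls there too. Rows of cytosolic ribosomal proteins were left out of these genes, but genes of mitochondrial ribosomal proteins were not. The part that gene length, depth or the mitochondrial share had in the ribosomal protein levels was not tested beyond the length offsets given below. Of the counts on members, 56.2% fell on 5 genes, among which Rplp0 took 21.5%, Rpl3 8.48%, Rps15 7.22% and Rpl41 6.53%. These are shares of reads and not of molecules, since a longer mRNA yields more reads.

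**Figure D1:**
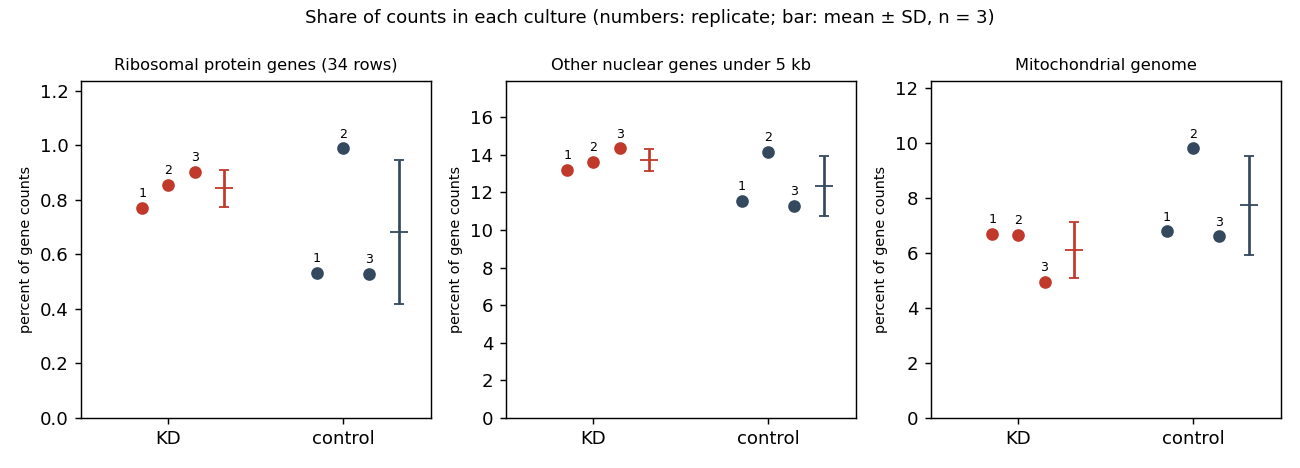
Percent of gene counts in each culture (points, numbered by replicate, KD left and control right) on the 34 ribosomal protein genes, on other nuclear genes under 5 kb and on the mitochondrial genome, with the mean ± SD of 3 cultures as a bar. Control 2 is the highest culture for ribosomal proteins (0.989%) and mitochondrial genes (9.81%), while KD 3 is the highest for short genes (14.4%).

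No member passed the test between KD and control. Of the 31 tested, 0 were called by edgeR (0.0% of all genes tested) and 0 by DESeq2 (1.32%). The unadjusted p of edgeR was under 0.05, in the direction of higher KD levels, for 2 members, Rpl4 and Rpl6 (3.69% of all genes), and for no member in the other direction (7.14%). The mean was higher in KD cultures for 26 members and lower for 5, where 47.6% of all genes were higher. The median log2 fold change was 0.24 over the members and -0.02 over all genes. The 22 large subunit genes had a median of 0.23 and the 9 small subunit genes one of 0.26. In 4 members every KD culture lay above every control, Rpl3, Rpl4, Rpl6 and Rpl36 (7.42% of all genes did so), and in none did every KD culture lie below (10.2%).

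Many members also shared an order of the cultures. Every KD culture lay above both control 1 and control 3 in 23 of 31 members (16.8% of all genes), and in none did every KD culture lie below both (17.2%). Control 2 was the highest of the 6 cultures in 17 members (20.4%), and the KD values lay inside the range of the controls in 16 (14.6%). Relative to the mean of controls 1 and 3, control 2 was higher by a median of 1.83-fold, with a lowest ratio of 0.939 in Rpl3 and a highest of 4.15 in Rplp1, and it was more than 1.5-fold higher in 22 members. The KD cultures differed less among themselves, with a median ratio of highest to lowest culture of 1.31 against 1.95 in the controls. On the log2 scale, the mean deviation of the members from their control means was 0.22, 0.42 and 0.19 in the KD cultures and -0.30, 0.61 and -0.31 in the controls.

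**Figure D2:**
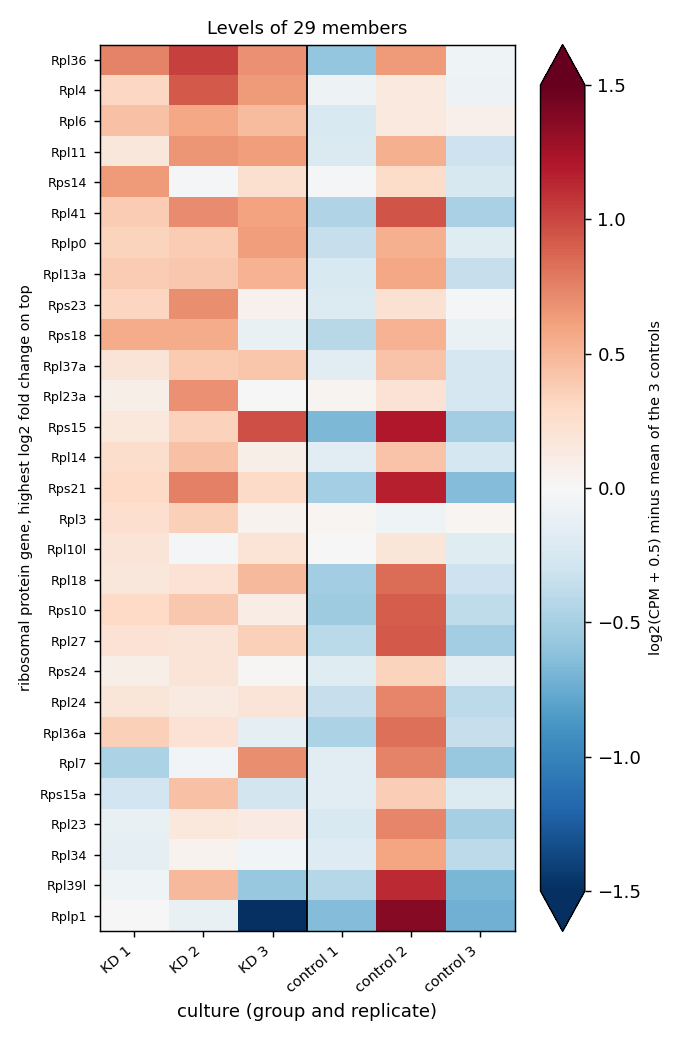
Log2 level of 29 of the 31 tested members (rows, highest log2 fold change on top) in each culture (columns, KD left and control right), as the difference of log2(CPM + 0.5) from the mean of the 3 controls, with colours ending at 1.5 in either direction. Control 2 and most KD cells are red and controls 1 and 3 blue, Rpl3 is nearly uniform across the controls, and Rplp1 in KD 3 is the darkest blue.

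Across the 6 cultures, log2 levels of 2 members had a median correlation of 0.69 over 465 pairs, with 164 pairs above 0.8 and 14 below 0. These correlations are a description over 6 points that share depth and library. The member closest to the mean of the others was Rps21 (r = 0.996), followed by Rps24 (0.984), Rpl41 (0.979) and Rps10 (0.977). The members farthest from it were Rpl3 (0.217), Rplp1 (0.419) and Rps14 (0.509).

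The ribosomal stalk, which recruits the GTPases of translation to the large subunit, is built from Rplp0, Rplp1 and Rplp2. Rplp0 and Rplp1 had log2 fold changes of opposite sign with all cultures, neither passing the test, and both were positive without control 2 (0.73 and 0.22). Rplp0 (chr12:48588977-48592275 in rn5), the base of the stalk, had 1710, 1769 and 2108 CPM in KD cultures and 1068, 1973 and 1195 CPM in controls. Only control 2 reached the KD range. The log2 fold change of Rplp0 was 0.40 (SE 0.28, adjusted p = 0.632 by edgeR). Rplp1 (chr8:66594523-66595860 in rn5), one of the acidic proteins bound to that base, had 330.0, 307 and 70.3 CPM in KD cultures and 211, 857 and 201 CPM in controls. Its highest value was that of control 2 and its lowest that of KD 3, and no other tested member had the lowest of its 6 values in KD 3. At -0.84 (SE 0.69, adjusted p = 0.688), Rplp1 had the lowest log2 fold change of the members, and without control 2 it stood at 0.22. Rpsa, the small subunit protein also known as laminin receptor precursor, was measured through a row known by description. It had 874, 886 and 956 CPM in KD cultures and 566, 976 and 649 CPM in controls, an order like that of Rplp0.

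**Figure D3:**
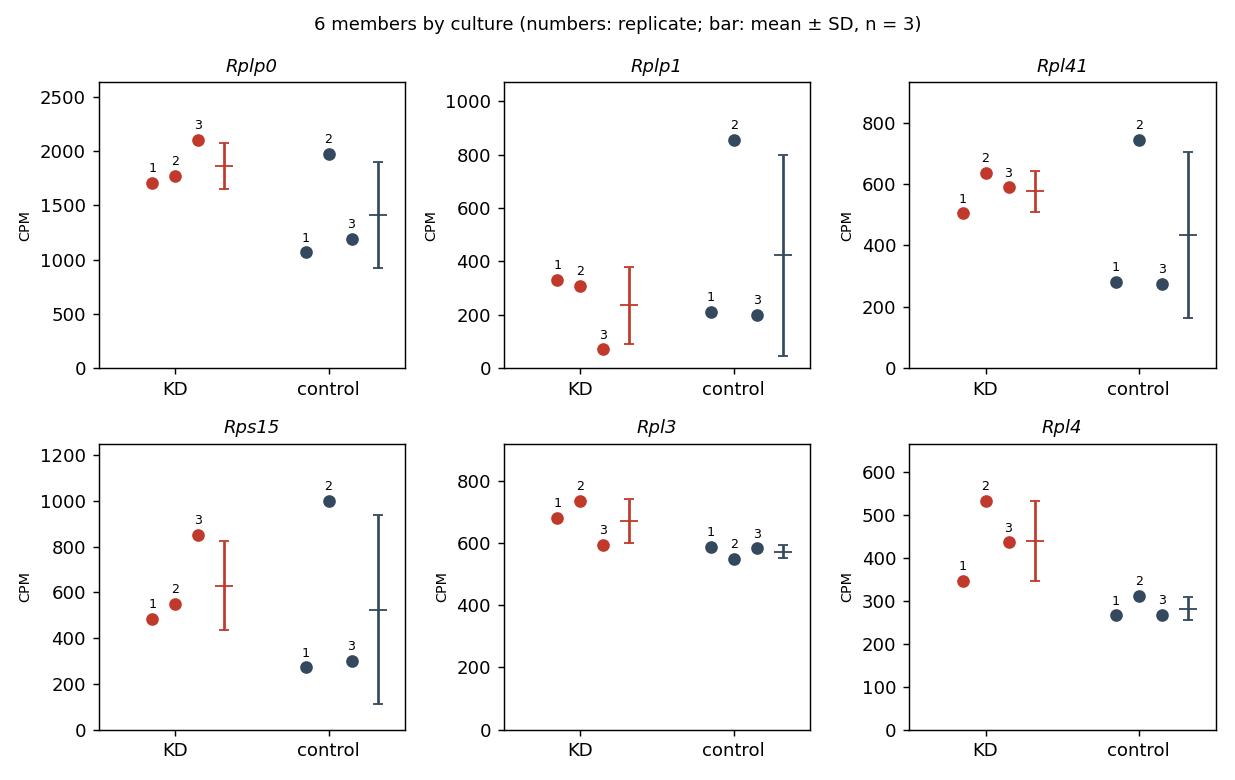
CPM of 6 members in each culture (points, numbered by replicate, KD left and control right, axes from 0), with the mean ± SD of 3 cultures as a bar. In Rplp0, Rplp1, Rpl41 and Rps15 control 2 stands far above the other controls, in Rplp1 KD 3 is lowest at 70.3 CPM, and in Rpl3 and Rpl4 every KD point lies above every control point.

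Rpl3 and Rpl4, large subunit proteins near the peptidyl transferase centre and the exit tunnel, had groups that did not overlap. This was not shared by the row described as Rpl39, another exit tunnel protein. Its groups overlapped, with a log2 fold change of -0.415. Rpl3 and Rpl4 were picked here because their groups did not overlap, not as a structural class. Rpl4 (chr8:68827907-68833042 in rn5), which lines the exit tunnel, had 348, 533 and 437 CPM in KD cultures and 267, 312 and 268 CPM in controls. Its log2 fold change was 0.64 (SE 0.22), with adjusted p-values of 0.406 by edgeR and 0.220 by DESeq2. Rpl3 (chr7:121287085-121292461 in rn5), which reaches towards the catalytic centre, had 681, 735 and 595 CPM in KD cultures and 586, 549 and 582 CPM in controls. The gap was narrow, 595 CPM in KD 3 against 586 CPM in control 1, and among tested members only Rpl3 had its lowest control value in control 2. Rpl6, another large subunit protein, had 33.7, 37.1 and 34.5 CPM in KD cultures and 21.1, 27.4 and 26.2 CPM in controls, a log2 fold change of 0.50 (SE 0.21, adjusted p = 0.447). Rpl4 and Rpl6 kept a log2 fold change of at least 0.39 with any 1 culture left out.

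Free Rpl5, Rpl11 and Rpl23 are known to bind Mdm2 and so stabilise p53 when ribosome assembly is disturbed. Rpl11 had 245, 345 and 337 CPM in KD cultures and 187, 314 and 175 CPM in controls (log2 fold change 0.46, SE 0.28). Its lowest KD value lay below control 2 and above the other controls. Rpl23 had 267, 324 and 315 CPM in KD cultures and 246, 480.2 and 205 CPM in controls, with a log2 fold change of -0.04 (SE 0.32) that became 0.44 without control 2. The row described as Rpl5 had 63.4, 99.7 and 112 CPM in KD cultures and 78.4, 159.8 and 62.4 CPM in controls, so that KD 1 lay below control 1. The 3 genes did not share 1 direction, and none passed the test.

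The other members with the highest fold changes fell in 2 kinds, those with few counts and those set by the low level of controls 1 and 3. Rpl36 had the highest log2 fold change, 0.96 (SE 0.47, adjusted p = 0.499), on 2.60, 3.25 and 2.48 CPM in KD cultures and 0.740, 2.38 and 1.26 CPM in controls, which are at most 94 counts in any library. Rps14, at 1.73, 0.900 and 1.19 CPM in KD cultures and 0.904, 1.23 and 0.711 CPM in controls, rests on 15 to 32 counts. RefSeq lists 10 pseudogenes for Rpl36 and 6 for Rps14. Rpl41, the smallest ribosomal protein, had 504, 635 and 589 CPM in KD cultures and 282, 745 and 276 CPM in controls. All KD values lay between control 2 and the other controls, and the log2 fold change of 0.41 had an SE of 0.38.

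Small subunit members followed that order only in part. Every KD culture lay above controls 1 and 3 in 6 of 9 (16.8% of all genes), the exceptions being Rps14, Rps15a and Rps18. Control 2 was the highest culture in 4 of 9 (20.4%). Rps15 (chr7:12451930-12453368 in rn5), a protein of the head of the small subunit, had 486, 551 and 852 CPM in KD cultures and 272, 999.9 and 302 CPM in controls. Its control values spanned 3.67-fold and its KD values 1.75-fold. Rps15a, in contrast, had 7.58, 12.8 and 7.61 CPM in KD cultures and 8.26, 12.2 and 8.05 CPM in controls. It was high in replicate 2 of both groups, and its log2 fold change of -0.02 was 0.02 by DESeq2. Rps10, Rps18, Rps21, Rps23 and Rps24 had log2 fold changes between 0.08 and 0.37, none with an adjusted p below 0.589.

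Rpl34, Rpl24, Rpl36a and Rpl7 were also among the 8 lowest fold changes. Rpl34 had 77.1, 88.3 and 82.8 CPM in KD cultures and 74.4, 129 and 64.7 CPM in controls (log2 fold change -0.11, SE 0.27). Rpl24, a protein of a bridge to the small subunit, had 244, 236 and 246 CPM in KD cultures and 169, 359 and 164 CPM in controls. Its KD values agreed within 1.04-fold while the controls spanned 2.18-fold. Rpl36a had 10.5, 9.45 and 7.25 CPM in KD cultures and 5.67, 14.7 and 6.28 CPM in controls. Rpl7 had 108, 145 and 244 CPM in KD cultures and 134, 251 and 101 CPM in controls, with KD 1 below control 1, and is the member with the most pseudogenes. The remaining large subunit members, Rpl13a, Rpl14, Rpl18, Rpl23a, Rpl27 and Rpl37a, had log2 fold changes between 0.10 and 0.38.

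Rpl39l and Rpl10l, paralogs with a tissue-restricted use in mammals, were at low levels in both groups. Rpl39l, a testis paralog of the exit tunnel protein Rpl39, had 2.22, 3.46 and 1.42 CPM in KD cultures and 1.60, 5.66 and 1.26 CPM in controls (log2 fold change -0.22, SE 0.63). The row described as Rpl39 had 6.39, 5.02 and 4.64 CPM in KD cultures and 6.33, 8.20 and 6.91 CPM in controls. Rpl10l, a testis gene that arose by retroposition from the X-linked Rpl10, had 0.921, 0.727 and 0.929 CPM in KD cultures and 0.740, 0.902 and 0.592 CPM in controls. The row described as Rpl10 had 363, 309.6 and 253 CPM in KD cultures and 327, 361 and 243 CPM in controls, with control 2 close to control 1. Rps27l, a p53 target, had 42.9, 39.3 and 48.0 CPM in KD cultures and 44.7, 101 and 37.5 CPM in controls, and its parent Rps27 had 222, 194 and 191 CPM against 128, 437 and 108 CPM. In both, control 2 was far above every other culture. Rps4x had 11.8, 10.2 and 18.8 CPM in KD cultures and 9.90, 42.3 and 10.8 CPM in controls, and the row described as Rps4y2 had 1.57, 1.90 and 2.39 CPM against 1.07, 1.23 and 1.70 CPM. These rows were all known by description, and near-identical copies make their levels uncertain.

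Because control 2 carried so much of the spread, the fit was repeated without it, a choice made after the data had been seen. All 32 members then tested were higher in KD cultures (50.6% of all genes were), and their median log2 fold change was 0.66, against 0.01 over all genes. One of the 32 was Rpl3l (0.77), too low for the test with all 6 cultures and with its highest counts in KD 1 and KD 2. Over the 31 members tested with all cultures the median was 0.65. As control 2 was high in most members, the upward shift follows in part from leaving it out. By edgeR 0 members were called (0.0% of 14166 genes) and 17 had an unadjusted p under 0.05 (6.49% of genes, higher in KD). DESeq2 called 6 members, all higher (1.03% of genes were called higher). Among these were Rpl41 (1.06, adjusted p = 0.00398), Rps15 (1.15, 0.0338), Rps21 (1.13, 0.0362), Rpl13a (0.75, 0.0411) and Rpl27 (0.74, 0.0432), each value in brackets a log2 fold change with its adjusted p. Leaving out KD 2 as well, which stood apart on the first principal component of all genes (40.3% of variance), left 29 of 31 members higher with a median of 0.57. With offsets for gene length and without control 2 all 32 were higher with a median of 0.56, against 0.10 over all genes. Leaving out control 1 or control 3 instead lowered the median to 0.14 and 0.16, with 18 of 32 and 21 of 32 members higher. The calls of DESeq2 and the size of the median thus turned on 1 library, control 2.

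**Figure D4:**
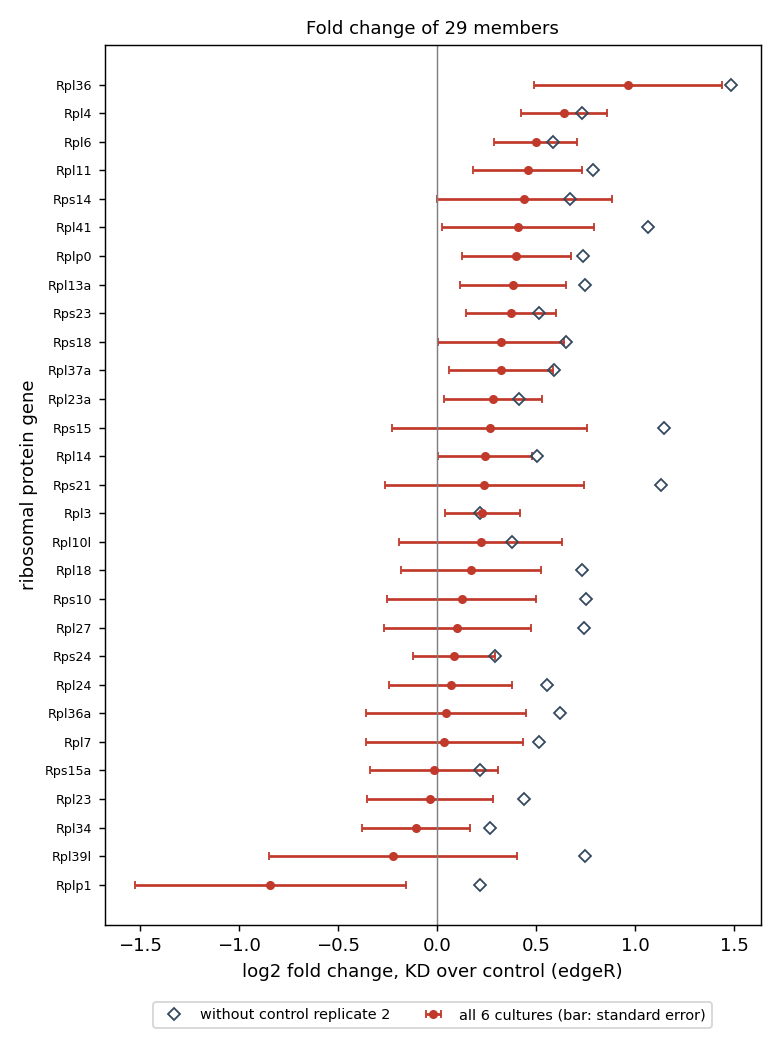
Log2 fold change, KD over control, of 29 of the 31 tested members by edgeR with all 6 cultures (filled points, bars are standard errors) and without control replicate 2 (open diamonds). Without that culture every diamond lies right of 0, Rpl41 is at 1.06, and only Rpl3 does not move to the right.

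The rows known by description gave a like picture. Of 45 tested, 30 were higher in KD cultures, the median log2 fold change was 0.15 and edgeR called 0. Control 2 was the highest culture in 29 of the 45 and every KD culture exceeded controls 1 and 3 in 24. Mitochondrial ribosomal proteins, which build the separate ribosome of the mitochondrion, had a median of 0.24 over 66 genes. Of these, 49 were higher, 32 had their highest value in control 2, and 0 were called. An unadjusted p under 0.05 was found for 3 higher and 1 lower, beside 3.69% and 7.14% of all genes.

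The factors that work with the ribosome were near the median of all genes or above it, again with 0 calls by edgeR in every list. Of 9 elongation factors 7 were higher (median 0.15), among them Eef2, which drives translocation, with 2682, 3008 and 2468 CPM in KD cultures and 1645, 2082 and 1937 CPM in controls. The Eef2 groups did not overlap, and control 2 lay below every KD culture. Its log2 fold change was 0.53 (SE 0.21, adjusted p = 0.430). Of 31 initiation factors 19 were higher, with a median of 0.09. An unadjusted p under 0.05 was found in 5 higher and 3 lower genes, where 3.69% of all genes were higher and 7.14% lower at that p. Eif3g, a subunit of the scaffold that recruits the small subunit, had a log2 fold change of 0.71, Eif6, which keeps the subunits apart, 0.57, and Eif5, which triggers GTP hydrolysis at the start codon, -0.62. None of these passed adjustment (p from 0.376 to 0.409 by edgeR). Of 42 tested factors of ribosome biogenesis 25 were higher, with a median of 0.08, and Polr1c, a subunit shared by the polymerases that make ribosomal RNA, had 0.54 and Grwd1 0.66. Other genes with TOP mRNAs had a median of 0.36, with 8 of 12 higher, and 15 genes of the mTOR pathway one of 0.15, with 11 higher. There Rps6kb2, an S6 kinase, had 0.70 and Rps6kb1 had -0.45 (adjusted p of 0.433 and 0.560 by edgeR).

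**Figure D5:**
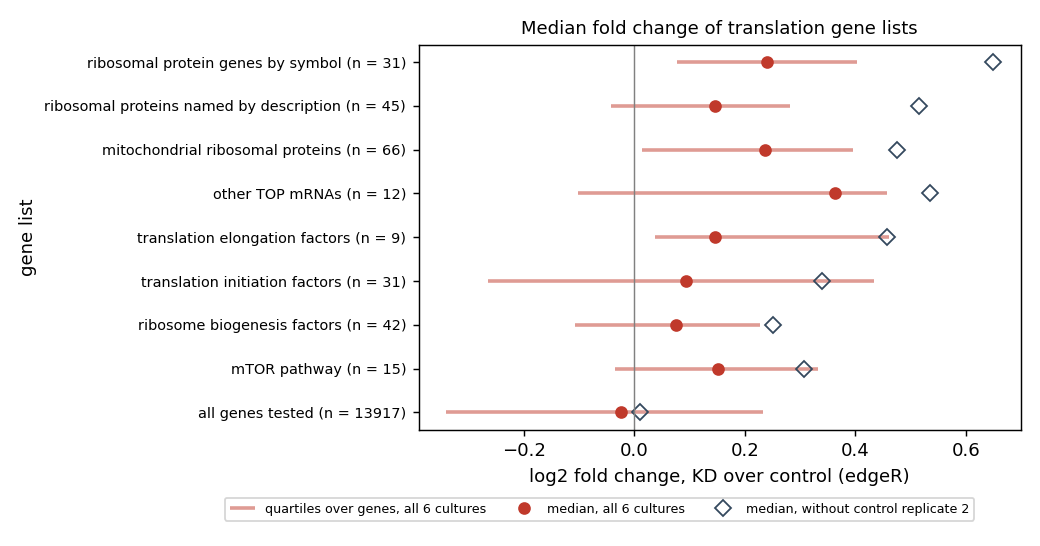
Median log2 fold change, KD over control, of the genes in each translation list and of all genes tested, with all 6 cultures (filled points, lines from the first to the third quartile of the genes) and without control replicate 2 (open diamonds). Over the genes tested with all cultures, the median of the ribosomal protein genes stands at 0.24 and at 0.65 without that culture, and all genes stand at -0.02 and 0.01.

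Markers of other cells in the cultures also differed between libraries. The summed level of 11 microglial genes was 7.75, 0.970 and 2.79 CPM in KD cultures and 89.2, 13.3 and 6.79 CPM in controls, with Ptprc at 0 in all KD cultures and a lower KD mean in 7 of 7 tested genes. Of 6 tested fibroblast and meningeal genes all had a lower KD mean, with sums of 47.5, 18.4 and 88.6 CPM in KD cultures and 112, 104 and 102 CPM in controls. The 7 astrocyte genes, each with a lower KD mean, summed to 5264, 1953 and 4491 CPM in KD cultures and 8888, 4351 and 4038 CPM in controls. Neuronal markers had 4 of 8 genes higher, with sums of 3812, 5576 and 4077 CPM in KD cultures and 3371, 5478 and 5550 CPM in controls, so the labelled cell type was present throughout. In each of these 4 sums control 2 lay between the other controls. Oligodendrocyte lineage genes summed to 766, 681 and 2043 CPM in KD cultures and 618, 1748 and 1320 CPM in controls, and proliferation genes to 312, 341 and 575 CPM against 348, 332 and 343 CPM. The part that a changed mixture of cells had in the ribosomal protein levels was not tested.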

How the data were processed

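RNA from the 6 cultures was sequenced by the authors with an unstranded kit (TruSeq RNA v2, single-end reads). Per the submitters' notes and the methods, CASAVA 1.8.2, FastQC 0.10.0, STAR 2.3.0, SAMtools 1.2 and HTSeq 0.6 were used with the rat genome rn5, and the authors' own test was DESeq2 1.8.1. The deposited values are raw counts of reads per Ensembl gene, and the deposited table adds gene spans in bases, introns included (unit other, used for length only). The strand and overlap settings of the counting are not given in the sources used here.

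Counts were compared in R 4.3.3 by condition alone, with edgeR 4.0.16 and its quasi-likelihood test (TMM factors, filterByExpr with a minimum of 10 counts, Benjamini-Hochberg threshold 0.05), fitted on all genes. DESeq2 1.42.0 was the second test. The alternatives were other normalizations and filters, gene length offsets (loess, span 0.5), copies added, a replicate block and each culture left out. CPM use TMM-scaled libraries, and log2 levels a pseudocount of 0.5. Samples were grouped by their titles, and no library repeated another (smallest chi-square of a replicate pair, divided by its degrees of freedom, 68.9). Code was tested on simulated data. The members and lists were chosen with earlier results of these data known, so no list was tested. Named genes are the 8 highest and 8 lowest fold changes, stalk genes and Rpsa, paralogs with parents, the Mdm2 binders, rows under 10 counts, calls, and up to 3 genes of other lists. Rps21, Rps15 and others beyond that rule were chosen after their values were seen. Levels per coding length were not computed. A few members count in the totals but are not reported here by name.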

Additional observations from a re-analysis of the deposited data

How the results depend on the processing

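The members' median log2 fold change stayed above 0 in every alternative run, and 0 members were called except by DESeq2 without control 2. The number of genes called was 195 by DESeq2, 8 with no filter, and 0 to 736 with cultures left out (both tests, the highest by DESeq2 without KD 3), where 1 was called without replicate 2 of both groups. With cultures left out, members called ran from 0 to 6, their median from 0.14 to 0.66, the difference in share of counts from 0.083 to 0.31 percentage points, and Magi2 from -1.71 to -1.19, with DESeq2 at -1.44 on all cultures (adjusted p = 0.00124). Fold changes near 0 changed sign. Rps15a was 0.016 by DESeq2, 0.0016 with RLE factors and 0.011 with no filter. Same-numbered cultures also share a number in the deposited column names, but what it marks is not given in the sources used here. Their deviations correlated at 0.61, 0.097 and -0.13, and of the KD cultures only KD 1 correlated best with its own number, so the cultures were not treated as pairs, and a shared preparation was not excluded. With the replicate block Rpl23 was 0.058, and 0.042 with length offsets added, while 0 genes were called, 1686 had an unadjusted p under 0.05, and the members' median was 0.30. With cultures left out, Rplp1 ran from -1.16 to 0.22, Rpl39l from -0.59 to 0.75, Rpl34 from -0.27 to 0.27, Rpl23 from -0.24 to 0.44, Rps15a from -0.28 to 0.22, Rpl7 from -0.35 to 0.61, Rpl36a from -0.20 to 0.62, Rpl24 from -0.11 to 0.57, Rpl27 from -0.12 to 0.77, Rps10 from -0.13 to 0.75, Rpl18 from -0.070 to 0.77, Rps15 from -0.046 to 1.24, Rps21 from -0.058 to 1.13 and Rps24 from -0.0067 to 0.29. The highest value came from a run without control 2 in each of these 14 genes. In Rps15, Rpl7, Rpl27, Rpl18 and Rpl24 that run held a further change. Without control 2 alone, edgeR gave these 1.15, 0.51, 0.74, 0.73 and 0.55. The lowest value came without control 1 or control 3 in 11 of the 14, without KD 2 in Rpl39l and Rps15a and without KD 3 in Rpl7. The cause was not tested. With 3 cultures a group and a biological coefficient of variation of 0.317, and with low rows such as Rps14, differences of the size seen in most members were within the spread of the controls.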

Other observations

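Some ribosomal protein rows went with the replicate number in place of the group, a pattern chosen after the values were seen. The row described as Rpl30 had 32.2, 5.30 and 17.6 CPM in KD cultures and 25.6, 4.67 and 23.0 CPM in controls, so both cultures numbered 2 were lowest. The row described as Rpl12 had 11, 0 and 26 counts in KD cultures and 12, 1 and 21 counts in controls. The row described as Rps2 went the other way, with 81.4, 282 and 119 CPM in KD cultures and 50.3, 340.2 and 58.7 CPM in controls. What sets these rows apart was not tested.

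Raw counts summed over the 34 members were 141238, 253820 and 198402 in the KD cultures and 123949, 129238 and 131680 in the controls. Before scaling to library size, control 2 thus lay between the other controls, on the smallest total of the 6 libraries. Raw sums rise with library size and are not levels, and as a share of counts control 2 was the highest (0.989%).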
